A study of Mus musculus with 8 samples.

Results

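The clustered histone genes of the mouse are the intronless gene copies whose symbols begin with Hist1, Hist2, Hist3 or Hist4. All 67 protein-coding genes with such a symbol in the GENCODE M21 annotation of GRCm38 were taken, out of 21755 protein-coding genes on chromosomes 1 to 19 and X. They encode the linker histone H1 (6 genes) and the core histones H2A (18), H2B (18), H3 (12) and H4 (13). Of these, 54 lie on chromosome 13 in a pair of runs, one with 23 members between starts 21716143 and 22043214 and one with 31 members between 23531050 and 23934462. Another 10 lie on chromosome 3, 2 on chromosome 11 and 1 on chromosome 6.

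CpG methylation was read by whole-genome bisulfite sequencing in splenic lymphocytes of C57BL/6J mice aged 6 to 8 weeks, in which no gene was altered and no treatment was given. The 8 samples fell into 4 groups of 2: CD43- resting B cells of females and of males, and naive CD4+CD62L+ T cells of females and of males, each pooled over several animals by the study's methods. Each group had 1 file, so there were no replicates within a group, and it is not stated whether a file merges both samples. Bisulfite converts unmethylated cytosine only, so a CpG's level is the share of reads left unconverted there, with 5-methylcytosine and 5-hydroxymethylcytosine read alike. The files held between 19809163 and 20078931 CpGs, with a mean of 14.6 reads per autosomal CpG in female B, 17.7 in female T, 16.1 in male B and 17.3 in male T cells. As a check of the labels, the promoters of Cd79a, Cd79b and Ms4a1 were called lower in B cells, those of Blk and Cd22 were lower by 12.1 and 19.2 percentage points without a call, and those of all 6 T cell genes examined were called lower in T cells. The direction of these called genes was the same in all 15 alternative analyses, but the calls were lost in 3 or more, among them the 3 in which no promoter at all was called.

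Histones package DNA into nucleosomes, and most are made in bulk during S phase, when newly copied DNA needs them. The genes for this supply stand in many copies and in clusters, and their mRNAs end in a stem-loop in place of a poly(A) tail. A few genes in the same clusters are instead used mainly in male germ cells, where their proteins replace the somatic ones: Hist1h1t encodes the testis linker histone H1t, and Hist1h2aa and Hist1h2ba encode the testis forms of H2A and H2B. The lymphocytes studied here were resting cells, which are not in S phase.

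The stretches between the starts of head-to-head gene pairs carry the contrast between the germ cell and the replication genes. The reference sequence (GRCm38, plus strand) between the starts of the testis pair Hist1h2ba and Hist1h2aa (chr13:23934160-23934459) and that between the starts of the replication pair Hist1h2ac and Hist1h2bc (chr13:23683948-23684199) are printed here with every CpG in capitals.
Hist1h2ba/Hist1h2aa: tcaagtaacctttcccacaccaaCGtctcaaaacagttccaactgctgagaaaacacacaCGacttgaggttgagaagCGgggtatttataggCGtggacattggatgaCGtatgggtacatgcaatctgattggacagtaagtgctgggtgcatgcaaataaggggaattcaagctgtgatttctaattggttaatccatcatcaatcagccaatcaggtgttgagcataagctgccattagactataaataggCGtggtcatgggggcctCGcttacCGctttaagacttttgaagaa
Hist1h2ac/Hist1h2bc: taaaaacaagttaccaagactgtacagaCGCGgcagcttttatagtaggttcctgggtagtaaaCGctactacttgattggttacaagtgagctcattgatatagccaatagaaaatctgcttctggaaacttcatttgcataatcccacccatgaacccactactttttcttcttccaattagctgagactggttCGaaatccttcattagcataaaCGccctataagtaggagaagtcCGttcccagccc

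The stretches held 8 CpGs in the testis pair and 6 in the replication pair, and all of these were covered. Both held the octamer ATTTGCAT, on one strand or the other. The 8 CpGs of the testis pair had levels of 100% in female B, 96.6% in female T, 96.4% in male B and 97.5% in male T cells. The 6 CpGs of the replication pair had 2.25% in female B cells and 0% in each of the other 3 files, on 73 to 91 reads.

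The same contrast stood between the linker histone genes. The 250 bases before and 50 bases after the start of the testis gene Hist1h1t (chr13:23695564-23695863) and of the somatic gene Hist1h1c (chr13:23738558-23738857), which was chosen as its counterpart after values were seen, are given in the same way.
Hist1h1t: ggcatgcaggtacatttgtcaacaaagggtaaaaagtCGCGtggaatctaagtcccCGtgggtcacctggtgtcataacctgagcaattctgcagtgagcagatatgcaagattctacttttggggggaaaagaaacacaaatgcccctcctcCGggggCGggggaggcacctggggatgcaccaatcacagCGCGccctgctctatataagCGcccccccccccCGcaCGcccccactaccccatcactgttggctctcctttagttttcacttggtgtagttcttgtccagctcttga
Hist1h1c: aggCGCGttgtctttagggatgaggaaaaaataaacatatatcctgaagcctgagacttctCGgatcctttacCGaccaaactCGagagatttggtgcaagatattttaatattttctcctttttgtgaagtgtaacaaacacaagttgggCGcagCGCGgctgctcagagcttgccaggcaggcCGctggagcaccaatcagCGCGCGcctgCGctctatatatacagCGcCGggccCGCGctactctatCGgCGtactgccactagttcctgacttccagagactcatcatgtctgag

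Both hold the H1 box AAACACA, an element of H1 promoters. Of the 10 CpGs of the Hist1h1t stretch, 7 were covered, with levels of 82.6% in female B, 94.7% in female T, 87.7% in male B and 90.4% in male T cells. The 19 CpGs of Hist1h1c had 0.478% in female B cells and 0% in the other 3 files.

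For all genes, the promoter was taken as the annotated start with 500 bp to either side, and its level as methylated over all reads at CpGs with 5 or more reads in all 4 files, with at least 3 such CpGs. A level was obtained for 63 of the 67 members and for 20195 of all protein-coding promoters. Promoters under 10% in all 4 files are termed unmethylated here, and those over 50% in all 4 files methylated. By this measure 58 of the 63 members (92.1%) were unmethylated, compared with 54.0% of all promoters. Members are rich in CpGs, and among promoters with 44 or more CpGs the shares were closer, with 54 of 57 members (94.7%) and 90.1% of the other promoters unmethylated. Methylated levels were found at 4 members, Hist1h2aa, Hist1h2ba, Hist1h1t and Hist1h1d, and Hist2h3b lay between the classes. Unmethylated promoters made up 4 of 6 H1, 15 of 16 measured H2A, 15 of 16 measured H2B, 11 of 12 H3 and 13 of 13 H4 genes.

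**Figure D1:**
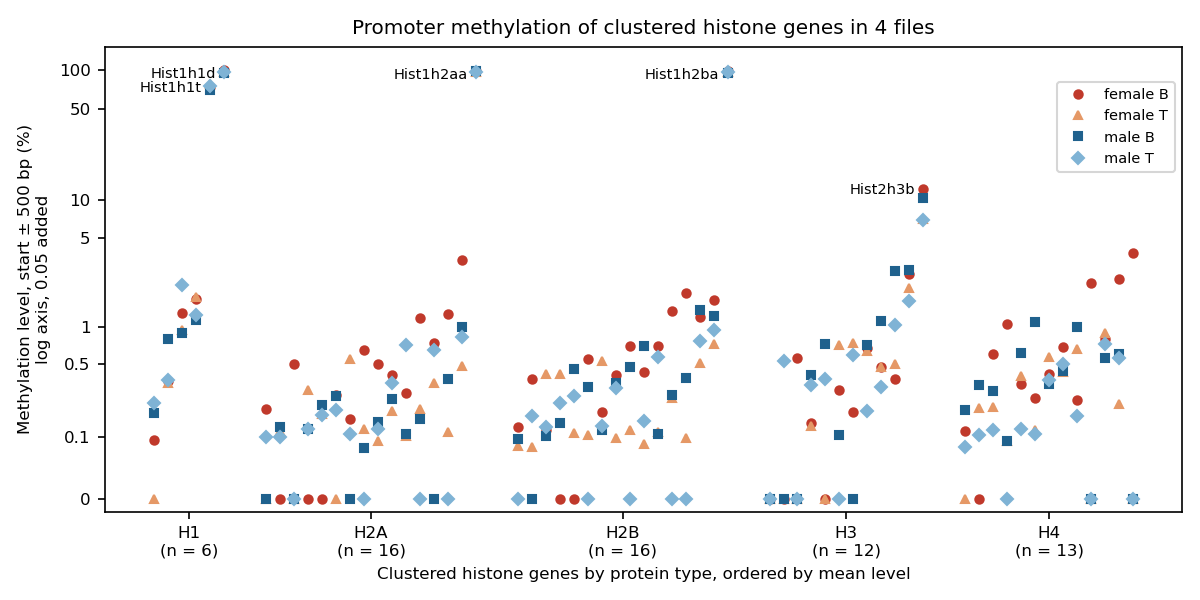
Methylation level of the start ± 500 bp window (%, log axis with 0.05 added) of the 63 clustered histone genes with a value, by protein type, with 1 point per file. Of these, 58 lie under 5% in every file, and the named genes Hist1h1t, Hist1h1d, Hist1h2aa, Hist1h2ba and Hist2h3b stand above.

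The testis pair was almost fully methylated in every file. Hist1h2ba had 98.4% in female B, 96.7% in female T, 94.3% in male B and 96.6% in male T cells, on 49 CpGs, all of them covered. Hist1h2aa had 97.7%, 96.8%, 97.2% and 96.7% in the same order, on 44 CpGs. The 4 files of Hist1h2aa lay within about a point of each other, whereas at Hist1h2ba the male B file was the lowest and the female B file the highest. The windows of these 2 genes overlap and together hold 68 distinct CpGs, of which the lowest in any file had 76.5%. The flanks out to 2500 bp were at 93.8% or more in every file. Such a level was unusual among promoters with at least as many CpGs as Hist1h2aa. Of 10502 promoters with 44 or more CpGs, 90.1% were unmethylated and 37 (0.352%) were over 90% in all 4 files. The pair stands at the lower end of this set, which runs up to 172 CpGs. Promoters of about the same CpG number were not taken apart.

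**Figure D2:**
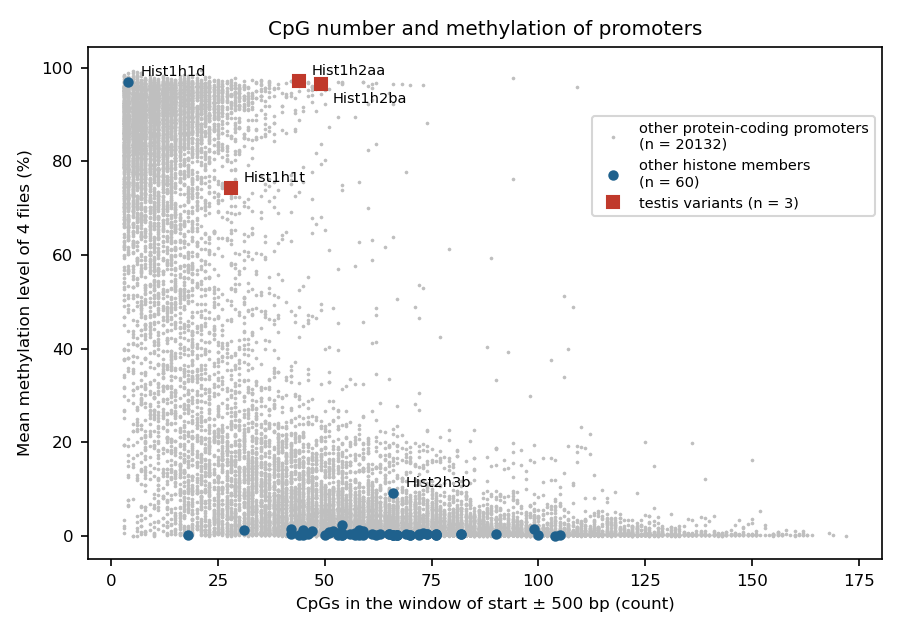
Mean methylation level of 4 files (%) against the number of reference CpGs in the start ± 500 bp window, with 1 point per promoter. The testis pair stands near 97%, while 58 of the other histone members lie along the bottom of the plot.

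Hist1h1t was methylated less evenly. Its window had 73.8% in female B (95% Wilson interval 69.1 to 78), 77.7% in female T (73.6 to 81.2), 70.5% in male B (65.8 to 74.9) and 75.1% in male T cells (70.6 to 79.0), on 25 of 28 CpGs. The intervals of all 4 files overlapped one another. The level depended on the position: the 8 CpGs before the start had 85.9% to 95.5%, the 8 CpGs in the first 250 bp had 56.7% to 78.5%, and the 9 CpGs past 500 and up to 1000 bp had 34.3% to 59.0%. Past 1000 and up to 2500 bp, towards the replication gene Hist1h4c, 36 CpGs had 3.04% to 3.83% in all. The fall was not even: 6 CpGs from 500 to 750 bp had 28% to 48.9%, 3 CpGs from 750 to 1000 bp had 51.2% to 79.5%, and the single CpGs covered from 1000 to 1250 bp and from 1250 to 1500 bp had 76.9% to 92.9% and 83.3% to 100%. Levels near 0 were reached past 1500 bp. Among 1600 promoters with 23 to 33 CpGs, 30.4% were methylated and 25.8% unmethylated, so that a methylated state was common at this CpG number.

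**Figure D3:**
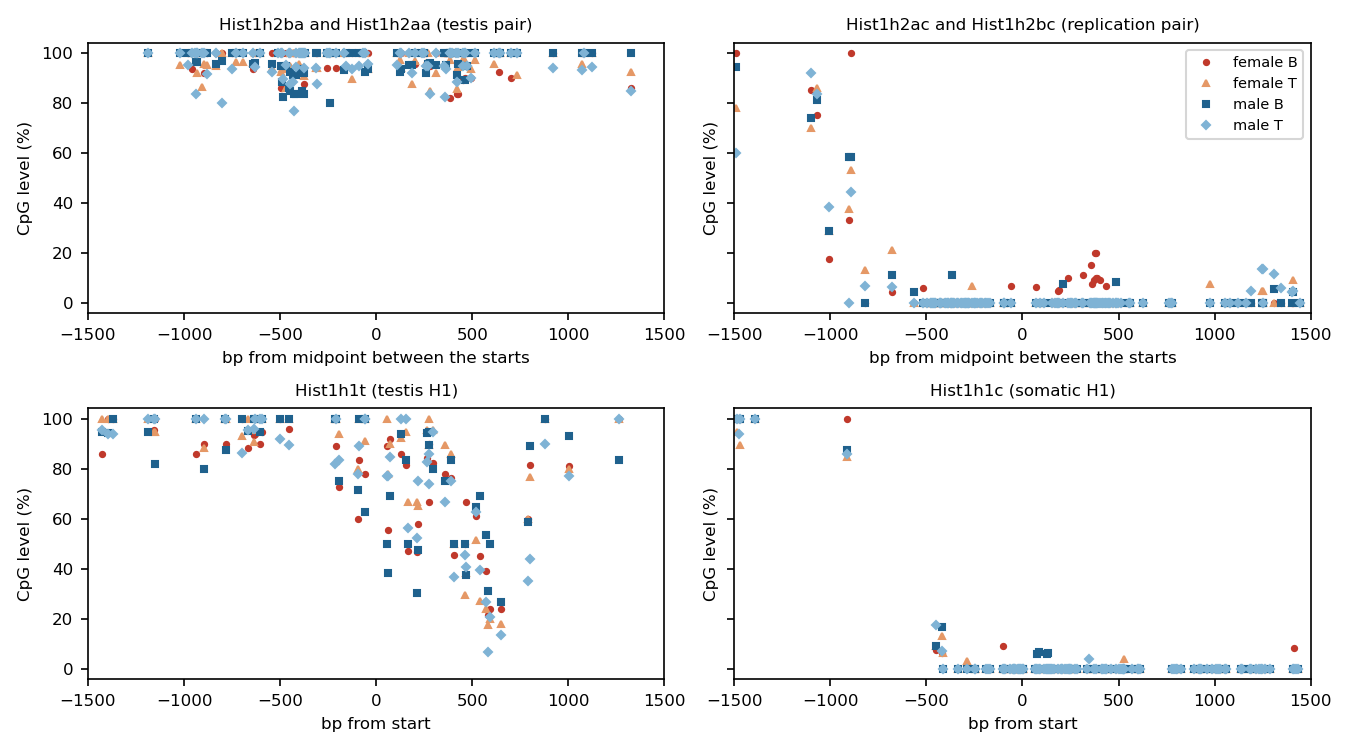
Level of single CpGs (%) within 1500 bp of the start, or of the midpoint between both starts, at the testis pair, a replication pair, the testis H1 gene and a somatic H1 gene, with 1 point per CpG and file. CpGs of the testis pair stay over 75% throughout, those of Hist1h1t drop after the start, and those of Hist1h2ac/Hist1h2bc and Hist1h1c lie at or near 0 around the starts, with a group of female B points of up to 20% at Hist1h2ac/Hist1h2bc.

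The 4 levels of the testis genes were also held by promoters elsewhere. By Euclidean distance over the 4 file levels, the non-member promoters nearest to Hist1h2ba were Morc1, Pnldc1 and Sod2, those nearest to Hist1h2aa were Gm10309, Tex35 and Ddx19b, and those nearest to Hist1h1t were Rad21l, Slc16a8 and Tnfsf13b. The distances of all 9 were at most 2.13 percentage points. All 9 windows had fewer CpGs than the testis gene they were nearest to, from 5 at Rad21l to 39 at Pnldc1, with 6 at Sod2. The likeness is thus one of level, and not at like CpG numbers.

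The remaining methylated member, Hist1h1d, encodes a somatic linker histone, and its value depended on the annotated start. Around the GENCODE start (chromosome 13, 23553262) it had 100%, 96.2%, 94.7% and 96.9% in B and T cells of females and B and T cells of males, in that order, but on 3 CpGs and 26 to 38 reads per file. The RefSeq start of the gene lies 1770 bp downstream, at 23555032. There, on 51 CpGs, the levels were 1.29%, 2.13%, 2.55% and 2.12%. It was the only one of 62 members matched to RefSeq whose starts were over 500 bp apart, and this use of RefSeq was chosen after the data had been seen. At the RefSeq starts, 54 of 58 members with a value were unmethylated, and the other 4 were the testis genes and Hist2h3b. For Hist1h2be, an H2B gene, RefSeq also lists a start at 23585970, where the levels ran from 0% to 0.253%.

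Hist2h3b encodes a core H3 and stood at the lower class border, with 12% in female B, 7.04% in female T, 10.4% in male B and 7.01% in male T cells. Both B cell files were above both T cell files. The window consisted of unlike parts: the 9 CpGs farthest upstream had 26.4% to 36.1%, and the other 32 CpGs had 0% to 1.22%. Its upstream edge thus reached into methylated sequence, at 74.2% to 83.7% from 1000 to 500 bp before the start.

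At the 58 unmethylated members, methylation was close to absent. Their median level was 0.402% in female B, 0.181% in female T, 0.263% in male B and 0.167% in male T cells, and the highest level of any member was 3.88%, 2.07%, 2.85% and 2.15% in the same files. The other unmethylated promoters of the genome had medians of 1.10%, 0.758%, 0.833% and 0.818%. These medians are given side by side with no test. Over the 63 members with a value, the median of the mean level was 0.340%, and it was 1.22% with 1000 bp to either side. With 250 bp to either side it was 0.195%, over the 59 members with a value there. Over the 2579 distinct CpGs of the 58 members, 694 of 166339 reads were methylated (a sequencing read over several CpGs counts at each), 2171 CpGs (84.2%) had no methylated read in any file, and 4 had a mean level of 20% or more.

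Among the unmethylated members, the mean level over the 4 files ran from 0.124% to 1.46% for H1, from 0.0739% to 1.43% for H2A, from 0.0759% to 1.14% for H2B, from 0% to 2.29% for H3 and from 0.0959% to 0.971% for H4. The lowest were the H3 gene Hist2h3c2 with no methylated read on 7 CpGs, the H2A gene Hist1h2ag (0.0739%) and the H2B gene Hist2h2bb (0.0759%). The highest were the H3 gene Hist1h3b (2.63%, 2.07%, 2.85% and 1.62% in the 4 files in the order above), the H1 genes Hist1h1a and Hist1h1b, the H2A gene Hist2h2aa2 and the H3 gene Hist1h3d. Hist1h1a had 1.69%, 1.74%, 1.14% and 1.26%, and Hist1h1b had 1.31%, 0.955%, 0.890% and 2.15%. Hist2h2aa2 had 3.40% in female B cells and 0.478% to 1.00% in the other files, and Hist1h3d had 2.79% in male B cells and 0.366% to 1.04% in the others. The file that stood highest thus differed from gene to gene.

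The unmethylated stretches around the members were longer at the median than those of other unmethylated promoters. Measured to the nearest run of 3 CpGs at 50% or more on either side, the stretch had a median of 3956 bp (1766 to 17126), compared with a median of 2195 bp (quartiles 1720 and 2924) for the other unmethylated promoters. Stretches that cross repeated sequence without covered CpGs are included, which lengthens them. Members also stand side by side, so the same stretch can span several members and be counted for each. The flanking steps below can likewise hold the promoters of neighbouring members. In steps of 250 bp, the members' level was 8.38% to 11% at 1000 to 750 bp before the start, against 36.7% to 37.9% for the other unmethylated promoters. At 2000 to 2250 bp after the start it was 45.6% to 53.1%, against 66% to 67.7%.

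**Figure D4:**
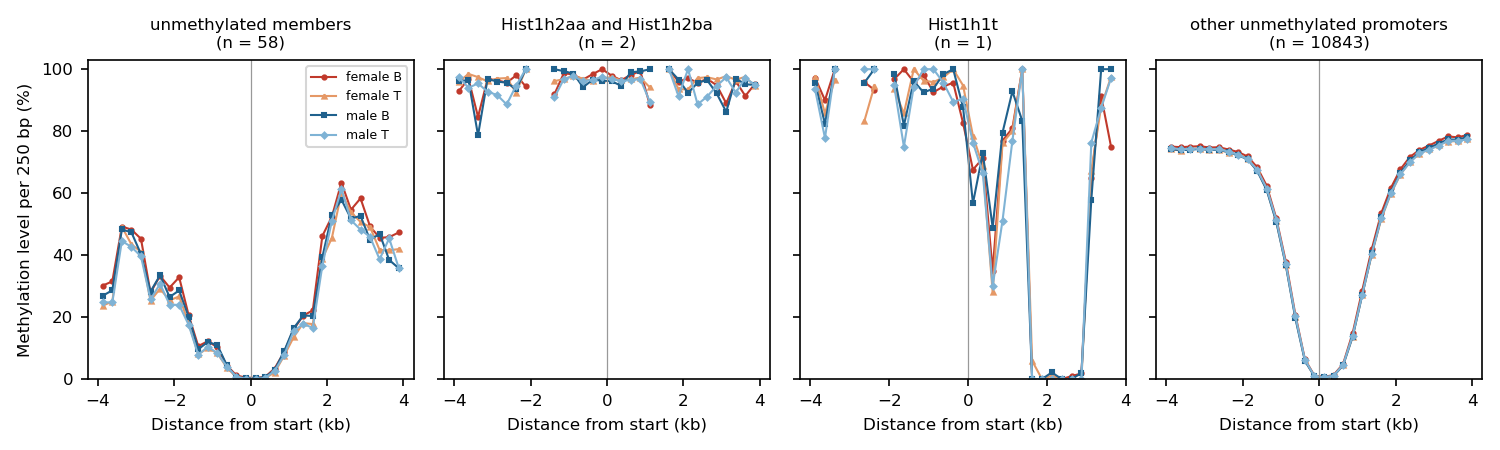
Methylation level (%) in 250 bp steps to 4 kb either side of the start, per file, for the 58 unmethylated members, the testis pair, Hist1h1t and 10843 other unmethylated promoters. The members' trough is flanked by lower levels than that of the other promoters, the testis pair shows no trough, and Hist1h1t falls to near 0 at about 2 kb downstream.

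In B against T cells, no member was called. The test was a quasi-binomial logistic model of the reads with cell type and sex as terms, its dispersion squeezed across promoters with limma, and a call needed a Benjamini-Hochberg adjusted p under 0.05 and a difference of 20 percentage points. It called 0 of 63 members and 265 of 20195 promoters (1.31%). Unmethylated members cannot differ by 20 points. At any size of difference, 0 of 63 members passed the adjusted p, and 735 of 20195 promoters did. That share is small, so 0 of 63 members is not a result about the members. At an unadjusted p under 0.05 there were 12 members (19%, as against 15.0% of all promoters). All 12 were higher in B cells on average, as were 1661 of the 3023 promoters at that level. Of these 12 members, 11 were higher in B cells in both sexes. Head-to-head pairs with both genes counted made up 4 of the 12, and such genes share CpGs. Fisher's exact test was run within each sex, and the larger of both p-values was kept. A call needed both adjusted p-values and the same direction in both sexes. Needing both p-values makes this rule stricter. The test itself has no term for spread between files. It takes reads at neighbouring CpGs as independent, which can make each p-value too small. The counts of this test and of the model are therefore not alike. Fisher's test called 264 promoters and 0 members, with 3 members and 1640 promoters at an unadjusted p under 0.05. Of the 3 members, 2 were higher in B cells. limma on log2 ratios of the reads called no promoter at all, so that its 0 members carries no information, and at an unadjusted p under 0.05 it had 2365 promoters and 13 members, 12 of them with the higher level in B cells.

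The B minus T difference of the unmethylated members had a median of 0.167 percentage points (-0.579 to 1.94), beside 0.0695 over all promoters and 0.103 over the other unmethylated ones. The lowest adjusted p was 0.0506, at Hist1h2bc. This H2B gene had 1.86% in female B cells (18 of 968 reads summed over CpGs), 0.0986% in female T, 0.374% in male B and 0% in male T cells. Its H2A partner Hist1h2ac, whose window overlaps it, had 1.28%, 0.114%, 0.371% and 0%. In this pair 16 of 89 CpGs had a methylated read in female B, 1 in female T, 4 in male B and 0 in male T cells, and the highest CpG level was 20% in female B cells. Most of these CpGs lay close together with 1 or 2 methylated reads each, so that the same few sequencing reads can have been counted at several of them.

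The same file stood out at other members. Hist1h4f had 2.40% in female B cells and 0.220% to 0.608% in the others. The H4 genes Hist1h4m and Hist1h4n, of which 5 and 23 CpGs were covered, had 3.88% and 2.25% in female B cells and 0% in the other 3 files. The female B file was the highest, with ties counted for it, at 27 of the 58 unmethylated members (46.6%). The same count gave 40.7% of the other unmethylated promoters. Promoters at 0% in all 4 files, such as Hist2h3c2, are included in these counts. Of the 12 members with an unadjusted p under 0.05 in B against T cells, it was the highest at 10. It was also the file with the fewest reads per CpG, and the part of depth in these values was not tested. With all 4 files and cell type as the only term, the count of 12 was 7. A fit with 3 files leaves room for cell type alone, and the count was then 2 (of which 1 was higher in B cells) without the female B file, 4 without the female T file, 11 without the male B file and 0 without the male T file. Over all promoters it fell as well, from 3023 to 2200 with cell type alone, and to 1891, 2002, 1779 and 1469 without each file in the same order.

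The test passed at none of the members with more methylation either. Hist1h1t had a B minus T difference of -3.87 points in females, and of -4.54 in males, with adjusted p = 0.55 in the F test of the quasi-binomial model. Hist2h3b was higher in B cells by 4.94 and 3.36 points, with adjusted p = 0.176. At Hist1h2ba the sign differed between the sexes, 1.70 points in females and -2.30 points in males, with adjusted p = 0.916. Hist1h2aa differed by 0.852 and 0.427 points, with adjusted p = 0.789.

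Between females and males, 0 of 63 members and 0 of 19427 autosomal promoters (0.0%) were called by the same quasi-binomial model. At an unadjusted p under 0.05 there were 7 members (11.1%), all higher in females, and 1105 autosomal promoters (5.69%), of which 749 were higher in females. The female B file was the highest at 6 of these 7 members. With sex as the only term, the counts were 0 members and 324 autosomal promoters with all 4 files. In the fits with 3 files, which also hold that term only, the members' count was 0 without the female B file, 6 without the female T file, 0 without the male B file and 1 without the male T file, and that of autosomal promoters was 311, 566, 261 and 282. limma on log2 ratios and Fisher's exact test called 0 members, with 11 (of which 9 were higher in females) and 0 at an unadjusted p under 0.05, as against 969 and 504 autosomal promoters. Fisher's test was here run within each cell type, again with the larger of both p-values kept. In the quasi-binomial model with both terms, the lowest adjusted p of a member was 0.834.

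Many members are near copies of each other, and coverage was lower where more of the sequence was repeated. Over all member windows 75.4% of the reference CpGs were covered in all 4 files, against 94.5% for all protein-coding genes. Of the 16 members with under 5% of their 100-base words found elsewhere in the genome, 98.5% of CpGs were covered, of the 27 members with 5% to 30% it was 93.3%, and of the 24 members with 30% or more it was 50.4%. No level was obtained for the H2A genes Hist1h2ao and Hist1h2ap and the H2B genes Hist1h2bq and Hist1h2br, in which 100% of the words were repeated and no CpG was covered. Values of Hist2h3c1 and Hist2h3c2 rest on 9 and 7 of over 100 CpGs, and from which copy such reads came is uncertain. All 3 testis genes had under 10% repeated words.

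**Figure D5:**
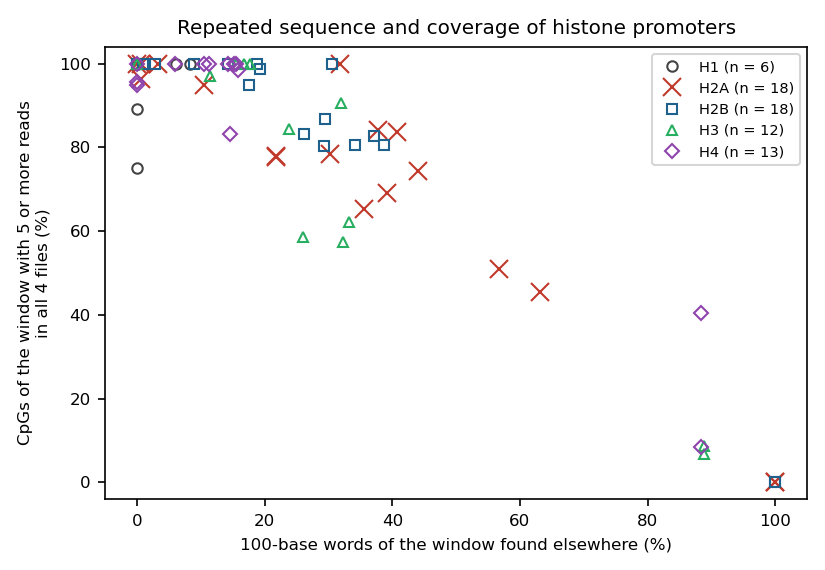
Share of a member's CpGs with 5 or more reads in all 4 files (%) against the share of 100-base words of its window found elsewhere in the genome (%), with 1 point per gene and 67 genes. The 4 genes without a value share the point at 100% repeated words and 0% coverage.

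Sequence features were examined that the choice by symbol did not use. The members' windows had a median of 62 CpGs and an observed over expected CpG ratio of 0.879, against 41 and 0.558 for all protein-coding genes, at a GC content of 53.7% against 54.8%. On both strands from 250 bp before to 50 bp after the start, CCAAT was found in 56 of 67 members and 38.9% of all genes, with 18 of 18 H2A, 18 of 18 H2B, 11 of 12 H3, 5 of 6 H1 and 4 of 13 H4 genes. The octamer ATTTGCAT was found in 15 members, 7 H2A and 8 H2B, and in 1.59% of all genes. TATAAA was found in 37 members (12.7% of all genes), the H1 box AAACACA in 9 members (4 of 6 H1 genes, 6.44% of all genes), the CRE TGACGTCA in 4 (2.45%) and the E2F motif, TTTCGCGC or TTTGGCGC, in 9 (1.03%). A match is a description of the letters only. Since both strands were read, the same letters can be counted for both genes of a head-to-head pair.

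The histone mRNA stem-loop, with its paired arms around a run of T, was found on the sense strand within 1000 bp of the start in 59 members and in 4 other genes, 0.290% of all genes. It lay a median of 448 bp from the start (341 to 881). The form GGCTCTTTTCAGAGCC was found in 39 members, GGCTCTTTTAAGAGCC in 9 and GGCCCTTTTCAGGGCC in 8, and the remaining 3 had another base in the loop. All 3 testis genes held the stem-loop, Hist1h2aa in the first form and Hist1h2ba and Hist1h1t in the second. Hist1h2aa and Hist1h2ba also held the octamer, CCAAT and TATAAA, elements that were also found in unmethylated H2A and H2B genes. Of the members, 26 formed 13 head-to-head pairs with overlapping windows, whose values are not independent of each other.

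Genes of related function outside the clusters were examined by lists set by known role. Of 11 genes for replication-independent histone variants, 8 were unmethylated and 0 were called in B against T cells. The exceptions were H3f3b, encoding H3.3, at a mean of 83.5% on 5 CpGs at its annotated start, and H2afy (32%) and H2afy2 (21.6%), encoding macroH2A. Of 17 genes for histone gene transcription, histone mRNA processing and histone chaperones, 15 were unmethylated, among them Npat, Slbp and Casp8ap2, and 0 were called. Zfp473, a component of the mRNA processing machinery, was at a mean of 98.3% on 5 CpGs. These lists had median levels of 1.11% and 0.567%, beside 5.68% over all promoters. Most of their genes had more CpGs than the median of 46 over all promoters, so these levels are not at like CpG numbers.

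Of 8 genes for germ cell chromatin proteins outside the clusters, 7 were methylated: H1fnt (96%), Prm3 (95%), H1foo (94.2%), Tnp1 (91.8%), Prm2 (89.96%), Hils1 (76.7%) and Prm1 (72.1%), as means of the 4 files. Of all promoters, 29.2% were methylated. The windows of these 8 genes had 11 to 32 CpGs, against a median of 46 over all promoters with a value. The shares are thus not at like CpG numbers. The remaining gene, Tnp2, which encodes transition protein 2 of spermatids, was the only one called. It had 53.1% in female B and 60.7% in male B cells, and 19.1% in female T and 18.5% in male T cells. Both B files were above both T files, by 38.0 points on average, with adjusted p = 6.75e-06 in the F test of the quasi-binomial model. The call was kept in 11 of 15 alternatives and lost with a prior from all windows, with limma on log2 ratios, and without the male B or the male T file. The direction was the same in all 15. The adjusted p ran from 2.23e-19 in Fisher's exact test to 0.374 in the quasi-binomial model with a prior from all windows. With 250 bp or 1000 bp to either side the call was kept at a smaller difference, of 23.1 and 24.1 points.

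The 9 other protein-coding genes inside the histone runs were not uniformly unmethylated. Zfp184 and Pom121l2 were unmethylated, Trim38 (95.4%), Slc17a2 (94.0%), Slc17a3 (94.0%), Slc17a1 (92.9%) and Slc17a4 (79.3%) were methylated, and Prss16 (59.0%) and Hfe (18.1%) lay between. Slc17a4, which encodes a phosphate transporter family member, was called. It had 62.3% in female B, 93.0% in female T, 65.8% in male B and 96% in male T cells. It was lower in B cells by 30.5 points, with adjusted p = 0.000332 in the F test of the quasi-binomial model. The call was kept in 8 of 15 alternatives, with the same direction in all. With 250 bp or 1000 bp to either side the difference shrank to -9.55 and -10.8 points and the call was lost (adjusted p = 0.0914 and 0.134 in the quasi-binomial model). It was also lost with a prior from all windows, with limma on log2 ratios, and without the female B, the male B or the male T file. Over the alternatives the adjusted p ran from 3.74e-08 in Fisher's exact test to 0.379 in the quasi-binomial model with a prior from all windows. Its neighbours Hist1h2ba and Hist1h2aa were not called.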

How the data were processed

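Whole-genome bisulfite sequencing files of 4 groups were used, 1 file per group of 2 samples. The submitters' processing notes name Trim Galore, FastQC, Bismark 0.13.1 and mm10, with no role or order. For each CpG the authors deposited a fraction of reads methylated and the count of reads behind it, with a minimum of 5 reads and strands merged, and 18714703 CpGs were in all 4 files. Methylated reads were recovered as fraction times coverage, which was whole within 0.00101 of the fraction for 100% of entries. Conversion rate and duplicate removal are not given in the sources used here. Member windows with more repeated sequence had fewer covered CpGs, which removes CpGs of near-identical histone genes. Precision followed depth, a mean of 14.6 to 17.7 reads per autosomal CpG. In member windows the median was 12.8 in female B, 18.0 in female T, 14.9 in male B and 16.8 in male T cells. Over all promoters it was 14.7, 19.8, 17.4 and 18.7 in the same order. The 95% Wilson intervals cover counting error only. They take counts at different CpGs as independent, although a sequencing read over several CpGs counts at each. They are therefore too narrow.

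Starts came from GENCODE M21 (GRCm38), and sequences were read from the RefSeq GRCm38 genome. Promoters were fitted in R 4.3.3 by the quasi-binomial model, with F tests and Benjamini-Hochberg adjustment over all promoters. Dispersions were squeezed with limma 3.58.1 (squeezeVar), with the prior from promoters with 5 or more expected reads of each kind in every file. The model leaves 1 residual degree of freedom, so p-values rest on a spread shared across promoters. On simulated data with 200 changed promoters of 20195, of 30 points each, all 200 B against T changes were recovered with 1 false call. The simulated spread was set below the prior dispersion of 1.79 fitted to the data. Changed promoters were well covered, at low or intermediate levels, and shifted alike in both sexes. The simulation therefore does not measure the recovery or the false calls in these data. Members and lists were chosen with earlier results of these data known. Named were the testis genes, members called or not under 10%, the 3 lowest and 5 highest of the rest, the 5 largest B minus T differences, members without a value, listed genes called or over 20%, and the promoters nearest to the testis genes. One marker gene is not reported here. Alternatives changed the window, start, coverage and CpG minimum, threshold, prior, test and covariate, and left out each file, then with the tested term only.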

Additional observations from a re-analysis of the deposited data

How the results depend on the processing

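In B against T cells and in females against males, 0 members were called under all 15 alternatives to each test (for B against T cells, 3 of these called no promoter at all). The number of unmethylated members, 58 of 63, was 54 to 59 under all 12 alternatives to it. It was 56 of 59 with 250 bp and 54 of 63 with 1000 bp to either side. Leaving out a file or raising the threshold to 20% could not lower this count. The number of all promoters called in B against T cells, 265, was 469 with a threshold of 10 points, 735 with none, 0 with a prior from all windows, 0 with limma on log2 ratios and 150 without sex as a term. It was 0 to 137 with each file left out in turn, in fits that also had to drop sex as a term and so compare with the 150, with 0 without the male B file, 12 without the male T file, 93 without the female B file and 137 without the female T file. On autosomes, 0 promoters were called for sex under every alternative. The mean level of Hist2h3b was 0.356% with 250 bp and 15.7% with 1000 bp to either side, beside 9.10%, and that of Hist1h1d was 84% with 1000 bp to either side and 2.02% at the RefSeq start, which was added after seeing the data, beside 96.9%. The causes were not tested. The mean levels of Hist1h1t, Hist1h2aa and Hist1h2ba stayed over 70% in every alternative that gave a value. No paired analysis was possible because the groups share no replicate numbers. With 1 file per group, the spread between animals was not measured. At a mean of 14.6 to 17.7 reads per autosomal CpG, a level of under 1% rests on a few methylated reads.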

Other observations

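Annotated histone pseudogenes, which were not members, were examined in the same window. Hist3h2bb-ps on chromosome 11 had 0.101% in female B, 0.285% in female T, 0.126% in male B and 0.120% in male T cells, and Hist1h2aj on chromosome 13 had 0.402%, 0.494%, 0.432% and 0.412%. Both start near a member, at 173 bp from Hist3h2a and 236 bp from Hist1h2bm, and share 82.7% and 76.4% of their window with it, so their levels are largely those of the members. Hist1h2al, a processed pseudogene on chromosome 13 (51202727 to 51203065), outside the runs of members, had 21.4%, 23.2%, 17.1% and 26.3% on 56 CpGs. These differences between pseudogenes were not tested.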
